A study of Mus musculus with 12 samples.

Results

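The unfolded protein response and the integrated stress response are described here in mouse malignant peripheral nerve sheath tumours through 31 genes, chosen by symbol and mapped to GENCODE M21 gene identifiers out of the 54532 counted. They fall into a chaperone arm of 16 genes, a degradation arm of 4, a translocation arm of 2, a group of 3 stress sensors and an ATF4 arm of 6. All 31 were among the 15650 genes with enough reads to test. Bulk RNA sequencing covered 12 tumours in 3 groups of 4. The terminal combination tumours were taken at the terminal harvest from mice dosed by gavage every day with 2 drugs, palbociclib (100 mg/kg), which inhibits CDK4 and CDK6, and mirdametinib (1 mg/kg), which inhibits MEK. The regressing tumours came from mice on the same drugs and were taken while the tumour shrank. The vehicle tumours came from mice given the carrier and were taken at the terminal harvest. Every mouse is labelled C57B/6 and WT, and every tumour was started with an adenovirus whose Cas9 was aimed at Nf1 and at what the labels write as Cdk2na. The labels give no age, and nothing in them says which treated group the series design means by sensitive or resistant. Nor do they say from how many mice the tumours came, so a p-value reflects the spread among these 12 samples, which may be technical.

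The endoplasmic reticulum (ER) folds proteins bound for the membrane and for secretion. When unfolded protein accumulates, the sensors IRE1 (Ern1), ATF6 and PERK (Eif2ak3) raise the output of chaperones and of the machinery that exports and destroys misfolded protein, while PERK also slows translation and so favours the translation of ATF4. ATF4 can also be reached through other kinases that sense amino acid shortage, and its targets cover amino acid synthesis and import, tRNA charging and the pro-apoptotic factor CHOP (Ddit3). Secretory cells such as plasma cells carry high levels of the chaperones.

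Libraries held 13194699 to 22639625 counts, and levels are given as CPM, counts scaled to library size and composition. Marker RNA of some cells other than tumour cells differed in level between the groups, and in bulk tissue fewer cells of a type and less RNA per cell cannot be told apart. The muscle creatine kinase gene Ckm ran from 330 to 4550 CPM in terminal combination, 411 to 6825 CPM in regressing tumours and 25.0 to 635 CPM in vehicle tumours. The fat hormone gene Adipoq ran from 0.665 to 11.5, 13.2 to 37.8 and 0.0508 to 2.91 CPM in the same order of groups, and the immunoglobulin joining chain gene Jchain from 0.477 to 3.88, 8.52 to 108.7 and 0.305 to 9.69 CPM. The Schwann lineage factor gene Sox10 was at or near 0 throughout, at 0 to 2.10 CPM in terminal combination, 0.540 to 1.16 CPM in regressing tumours and 0 to 0.0856 CPM in vehicle tumours. Nf1, a target of the Cas9 virus in every group, ran from 12.2 to 23.8, 11.6 to 19.5 and 10.2 to 22.1 CPM, and Cdkn2a, which the label Cdk2na may mean, from 21.2 to 257.3, 7.49 to 393.2 and 5.08 to 244.2 CPM. The part of these cells in the results below was not tested beyond the values given.

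The sequences through which these pathways are known to act stood in many of the members' promoters. Promoters were read from RefSeq on GRCm38.p6, from 250 bases before to 50 after each start. Of the 31 genes, 28 matched, with Atf6, Hyou1 and Manf missing. The ER stress response element (ERSE), bound by ATF6 and XBP1 with the factor NF-Y, was searched on both strands as CCAAT and CCACG with 9 bases of any kind between them. It was present in 7 of 14 chaperone genes, in 1 of 4 degradation genes and in none of the ATF4 arm, against 37 of 27025 genes in the whole table, or 0.137%. The 8 genes that held it were Calr, Canx, Creld2, Dnajc3, Hsp90b1, Hspa5, Pdia6 and Syvn1. The shared CCACG end by itself stood in 22 of 28 genes, or 78.6%, against 35.5% of all genes. The 31 genes were chosen as genes of these pathways, so these shares beside all genes are a description and no test. These windows show the element in capitals in genes whose values are given below, on the strand of the gene, and Calr, Creld2 and Hsp90b1 carry it reversed:
Hspa5 (chr2:34772005-34772063, plus strand): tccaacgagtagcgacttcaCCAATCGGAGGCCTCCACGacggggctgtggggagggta
Creld2 (chr15:88819500-88819558, plus strand): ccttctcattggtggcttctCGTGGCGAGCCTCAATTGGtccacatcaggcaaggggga
Pdia6 (chr12:17266471-17266529, plus strand): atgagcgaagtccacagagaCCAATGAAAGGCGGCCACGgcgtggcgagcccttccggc
Hsp90b1 (chr10:86705513-86705571, minus strand): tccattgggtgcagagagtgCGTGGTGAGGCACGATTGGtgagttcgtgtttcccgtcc
Calr (chr8:84847055-84847113, minus strand): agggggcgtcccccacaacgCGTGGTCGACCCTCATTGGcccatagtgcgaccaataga
Syvn1 (chr19:6046512-6046570, plus strand): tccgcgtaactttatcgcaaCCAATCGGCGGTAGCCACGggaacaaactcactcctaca

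The element began 65 bases before the start in Hspa5, 44 in Syvn1, 98 in Pdia6, 126 in Creld2, 107 in Hsp90b1 and 162 in Calr. Hsp90b1 held a copy in the other orientation 212 bases before its start. A second form, ERSE-II, with ATTGG and CCACG 1 base apart, was present in Dnajb11 and Herpud1 and in 0.0444% of all genes. The XBP1 site TGACGTGG was present in Txndc5 and in 0.714% of all genes. The CCACG site lies within both longer elements, and ATTGG is CCAAT read on the other strand.

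The ATF4 arm carried a different element. The amino acid response element, searched as TGATGNAA on both strands, was present in 3 of its 6 genes and in 5 of the 28, or 17.9%, against 4.51% of all genes. Herpud1 and Txndc5 were the other carriers. These windows show it in capitals, reversed in Chac1 and Trib3:
Chac1 (chr2:119351029-119351076, plus strand): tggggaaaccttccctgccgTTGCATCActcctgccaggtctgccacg
Asns (chr6:7693205-7693252, minus strand): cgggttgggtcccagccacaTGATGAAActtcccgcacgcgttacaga
Trib3 (chr2:152344019-152344066, minus strand): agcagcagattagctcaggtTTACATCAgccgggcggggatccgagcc

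It began 193 bases before the start in Chac1 and 23 before it in Asns, and at base 15 counted from the start in Trib3. A match is a match of letters and says nothing of what is bound in these tumours.

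No gene of any kind passed an adjusted p of 0.05 in edgeR's quasi-likelihood test in any of the 3 comparisons (regressing against vehicle, terminal combination against vehicle, terminal combination against regressing), where 1994, 930 and 1099 genes had an unadjusted p under 0.05 and DESeq2 called 477, 14 and 51 after adjustment. The 31 genes are therefore described by their values, by an unadjusted p under 0.05 and by whether the groups overlap. In regressing against vehicle tumours, 5 of the 31 reached an unadjusted p under 0.05, or 16.13%, beside 12.7% of all genes tested. In terminal combination against vehicle tumours 4 did, or 12.9%, beside 5.94% of all genes. In terminal combination against regressing tumours 6 did, or 19.35%, beside 7.02% of all genes. By direction these were 1 higher and 4 lower, beside 6.72% and 6.03% of all genes, then 4 higher and 0 lower, beside 3.35% and 2.59%, and then 6 higher and 0 lower, beside 4.12% and 2.9%. DESeq2 called 2 of the 31 in regressing against vehicle tumours, Chac1 and Hyou1, beside 3.05% of all genes, and 0 in the others, beside 0.0895% for terminal combination against vehicle and 0.326% for terminal combination against regressing. The smallest adjusted p among the 31 was 0.236, 0.819 and 0.692 in these 3 comparisons. The share for regressing against vehicle is near that of all genes. Single tumours moved the counts: for terminal combination against vehicle the 4 became 1 without terminal combination tumour 2, 2 without vehicle tumour 3 and 7 without terminal combination tumour 3, and for terminal combination against regressing the 6 became 2 without terminal combination tumour 1 and 3 without regressing tumour 2 or 4. In the same order, the share of all genes at that p was 3.65%, 3.61% and 10.2%, and then 5.97%, 5.92% and 4.58%. Each pair of comparisons shares 1 group of tumours, so they are not independent.

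The direction differed by comparison. Against vehicle tumours, the regressing ones had a lower fitted level for 21 of the 31 genes, with a median log2 difference of -0.16 against -0.02 over all genes, of which 48.5% had a positive value. Against regressing tumours, the terminal combination ones had a higher level for 25 of the 31, with a median of 0.23 against 0.01 over all genes and a positive value for 50.8% of all genes. Against vehicle tumours, the terminal combination ones had a higher level for 16 of the 31, with a median of 0.02 and 50.4% of all genes positive. Without any overlap, regressing tumours stood above vehicle tumours for 2 genes and below them for 3, beside 3.5% and 4.13% of all genes. Terminal combination tumours stood above vehicle tumours for 3 and below for 0, beside 1.21% and 1.3%, and above regressing tumours for 4 and below for 0, beside 2.4% and 1.51%.

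**Figure D1:**
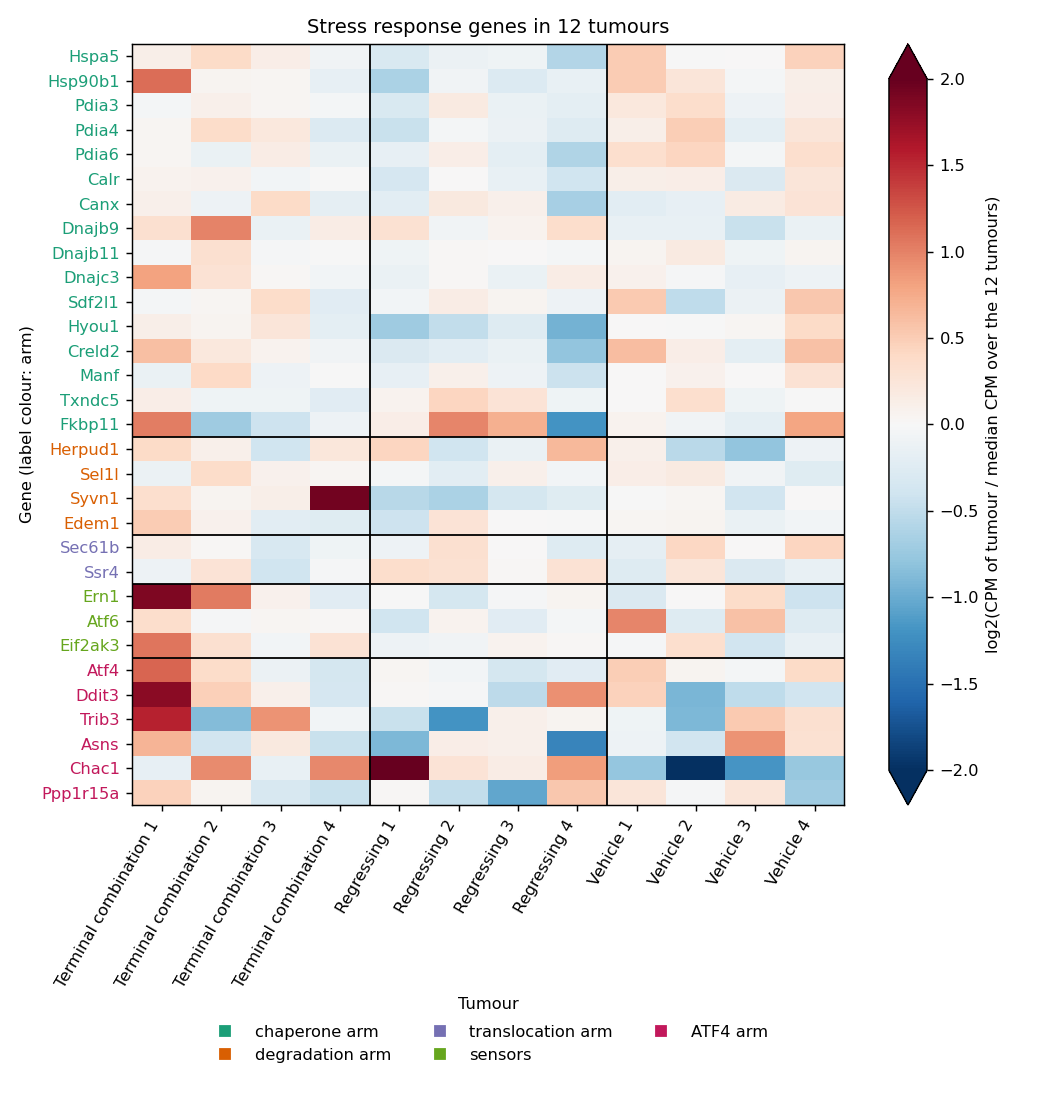
Each row is 1 of the 31 genes and each column 1 tumour, with the 4 terminal combination tumours on the left, the 4 regressing in the middle and the 4 vehicle on the right. Colour gives the log2 of a tumour's CPM over the gene's median of the 12. Terminal combination tumour 1 is the highest of the 12 for 9 genes, and regressing tumour 4 the lowest for 9.

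Among the 16 genes of the chaperone arm, 12 had a lower fitted level in regressing than in vehicle tumours, with a median of -0.25, and 14 had a higher level in terminal combination than in regressing tumours, with a median of 0.21. At an unadjusted p under 0.05, 4 were lower in the first of these, or 25.0%, beside 6.03% of all genes, and 4 were higher in the second, or 25.0%, beside 4.12% of all genes. Between terminal combination and vehicle tumours 11 of 16 were lower, with a median of -0.07. Only Dnajb9 reached that p there, or 6.25% of the arm, near the 5.94% of all genes. By mean CPM per kilobase of exon over the 12 tumours, Calr at 343.4, Pdia3 at 231.9, Hspa5 at 222.2 and Hsp90b1 at 184.1 were the most abundant of the 31.

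Hspa5 encodes BiP, the main HSP70 chaperone of the ER lumen, which also holds the sensors inactive. It had 970.0, 1171, 987.4 and 854.6 CPM in terminal combination tumours 1 to 4, 729.6, 823.4, 840.5 and 596.0 CPM in regressing tumours, and 1277, 895.5, 898.3 and 1232 CPM in vehicle tumours. All 4 regressing tumours lay below all 8 others. Means were 747.4 ± 112 CPM in regressing tumours and 1076 ± 207 CPM in vehicle tumours (SD, n = 4 each). The log2 difference was -0.53 ± 0.19 (SE), and its adjusted p was 0.286 by edgeR. Between terminal combination and regressing tumours the log2 difference was 0.41 ± 0.19, with an adjusted p of 0.707 by edgeR. The unadjusted p of 0.0161 against vehicle became 0.0603 without vehicle tumour 1 and 0.0570 without vehicle tumour 4. The unadjusted p of 0.0472 for terminal combination against regressing tumours stayed under 0.05 only on leaving out terminal combination tumour 4, regressing tumour 3 or vehicle tumour 2.

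Hyou1 encodes ORP150, a large HSP70 relative that exchanges nucleotide on BiP, and it had the smallest p of the chaperone arm. Its levels were 249.8, 240.3, 271.9 and 201.9 CPM in terminal combination tumours, 141.3, 163.7, 193.0 and 119.6 CPM in regressing tumours, and 232.3, 229.1, 238.3 and 300.0 CPM in vehicle tumours. Again every regressing tumour was below every other tumour. The log2 difference was -0.70 ± 0.17 (SE) for regressing against vehicle tumours, 0.618 times the vehicle level, with an adjusted p of 0.236 by edgeR and 0.0110 by DESeq2. For terminal combination against regressing tumours it was 0.64 ± 0.17, with an adjusted p of 0.692 by edgeR and 0.0699 by DESeq2. With any 1 tumour left out, the first stayed between -0.82 and -0.58 and the second between 0.54 and 0.77. Regressing tumours 1 and 4 and terminal combination tumour 2 were the richest in muscle RNA. Without them the second had no unadjusted p under 0.05 by edgeR.

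Creld2, a secreted and ER-resident disulfide isomerase relative, had 82.7, 63.1, 57.0 and 52.1 CPM in terminal combination tumours, 44.6, 47.0, 49.9 and 31.7 CPM in regressing tumours, and 83.8, 60.03, 47.5 and 81.6 CPM in vehicle tumours. The regressing tumours lay below all terminal combination tumours and overlapped with vehicle tumour 3. Regressing differed from vehicle tumours by a log2 of -0.66 ± 0.22 (SE), with an adjusted p of 0.282 by edgeR. Terminal combination differed from regressing tumours by 0.56 ± 0.22, with an adjusted p of 0.692. The terminal difference had an unadjusted p of 0.0983 without terminal combination tumour 1 and 0.0832 without regressing tumour 4. Pdia6, a disulfide isomerase that also binds IRE1, averaged 328.9 ± 66.4 CPM in regressing tumours and 453.7 ± 61.7 CPM in vehicle tumours, and the groups overlapped. Its unadjusted p of 0.0214 by edgeR's test across all genes was no longer under 0.05 without vehicle tumour 2 or 4 or regressing tumour 4.

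Hsp90b1 encodes GRP94, the HSP90 of the ER, which folds integrins and Toll-like receptors. It had 1469, 704.4, 694.5 and 604.5 CPM in terminal combination tumours, 436.5, 645.3, 563.5 and 615.2 CPM in regressing tumours, and 963.1, 805.3, 664.7 and 739.5 CPM in vehicle tumours. Regressing tumours lay below all vehicle tumours but not below all terminal combination tumours. The log2 difference of 0.62 ± 0.28 (SE) between terminal combination and regressing tumours was 0.24 without terminal combination tumour 1, and its unadjusted p of 0.0450 stayed under 0.05 only on leaving out terminal combination tumour 2, 3 or 4. Calr, the calcium-binding lectin calreticulin that folds glycoproteins, had 1067, 1077, 974.2 and 1005 CPM in terminal combination tumours, 798.9, 1022, 915.4 and 766.4 CPM in regressing tumours, and 1100, 1108, 831.4 and 1204 CPM in vehicle tumours, with overlap in every pair of groups. The other lectin, Canx, ran from 383.4 to 789.3 CPM over the 12 tumours.

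Dnajb9 encodes ERdj4, a BiP partner that represses IRE1 and hands misfolded protein to degradation, and it went the other way from Hspa5. Its levels were 31.2, 49.7, 22.7 and 27.7 CPM in terminal combination tumours, 30.7, 23.8, 26.2 and 31.8 CPM in regressing tumours, and 22.5, 22.4, 18.3 and 22.6 CPM in vehicle tumours. All 8 treated tumours were above all 4 vehicle tumours, the lowest of them only by the difference between 22.7 and 22.6 CPM. For terminal combination against vehicle tumours the log2 difference was 0.61 ± 0.23 (SE), with an adjusted p of 0.819 by edgeR, and it was 0.34 without terminal combination tumour 2. Its unadjusted p of 0.0189 became 0.0744 without that tumour and 0.0547 without vehicle tumour 3. The remaining chaperone genes reached no unadjusted p under 0.05 in any comparison. Among them the BiP partner Dnajb11 ran from 86.1 to 114.2 CPM over the 12 tumours, and Fkbp11, a prolyl isomerase abundant in secretory cells, from 17.7 to 82.1 CPM.

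**Figure D2:**
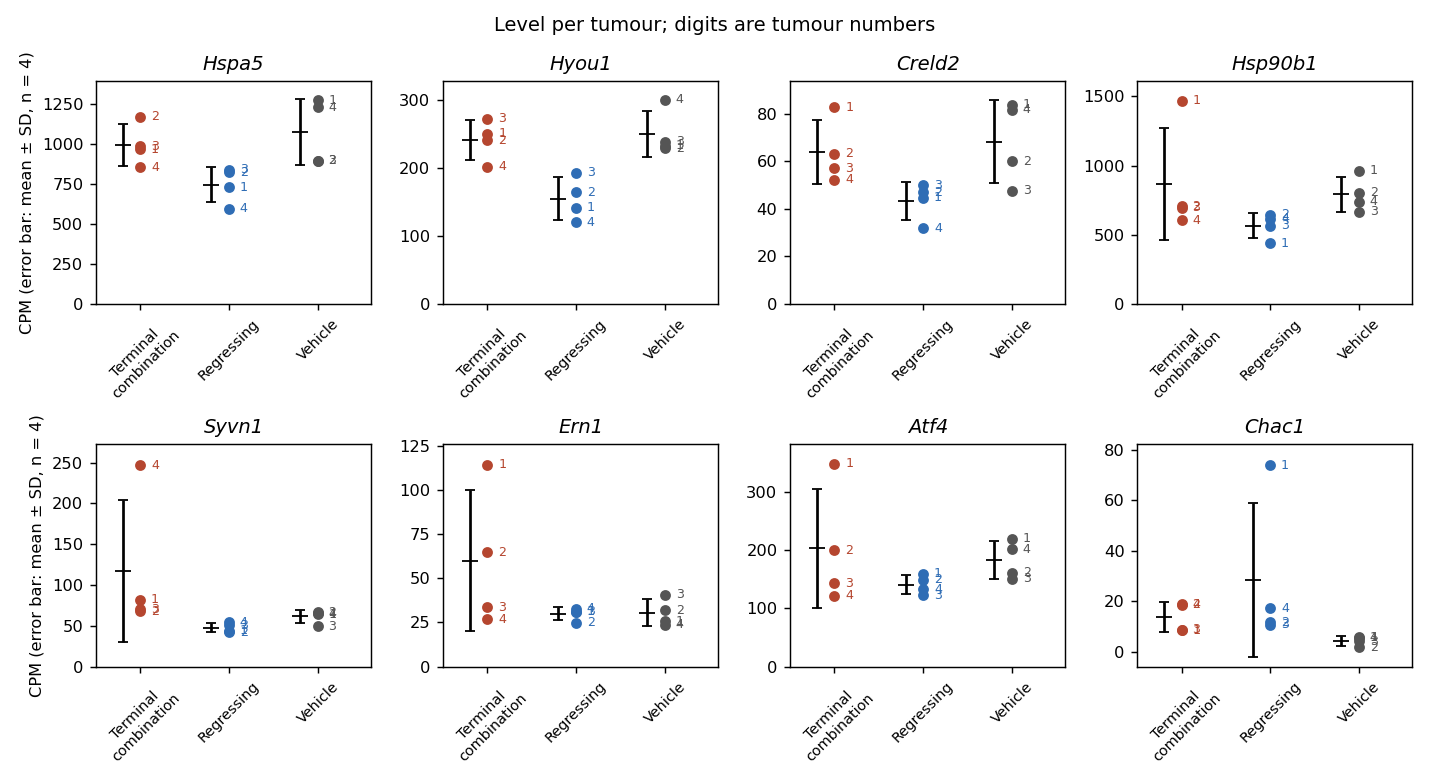
Vertical axes give CPM for 8 genes, each point 1 tumour with its number, and bars beside them the mean ± SD of 4 tumours, with terminal combination left, regressing in the middle and vehicle right. Hspa5 and Hyou1 show all regressing tumours below all others, while Syvn1, Ern1, Atf4, Hsp90b1 and Chac1 each show 1 tumour far above the rest of its group.

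Regressing tumours 1 and 4, which had the lowest chaperone arm scores of the 12 at 7.42 and 7.25, had the highest skeletal muscle scores, 11.04 and 11.01 (mean log2 CPM of 14 markers). Terminal combination tumour 2 came next with a muscle score of 10.05 and had 1171 CPM of Hspa5. The part of muscle in the chaperone values was not tested beyond the settings given here. Without these 3 tumours, Hyou1 differed between regressing and vehicle tumours by a log2 of -0.49 with an unadjusted p of 0.0384, and Hspa5 by -0.37 with an unadjusted p of 0.120, by edgeR's test across all genes. With the muscle score as a covariate these were -0.54 with 0.0401 and -0.61 with 0.0313. Dnajb9 had no unadjusted p under 0.05 between terminal combination and vehicle tumours in either of these 2 settings. Of 15 plasma cell genes tested, 11 were higher and 1 lower in regressing than in vehicle tumours at an unadjusted p under 0.05, beside 6.72% and 6.03% of all genes, and their score ran from 0.446 to 1.25 in terminal combination, 2.01 to 4.68 in regressing and 0.119 to 1.94 in vehicle tumours.

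The degradation arm moves misfolded protein out of the ER for destruction by the proteasome. Its 4 genes all had a higher fitted level in terminal combination than in vehicle tumours, with a median log2 difference of 0.24, and 2 of 4 did in regressing against vehicle tumours, with a median of -0.03. Syvn1 was its only gene at an unadjusted p under 0.05, in both comparisons of terminal combination tumours. That was 1 of 4, or 25.0%, beside 5.94% of all genes against vehicle and 7.02% against regressing tumours. Herpud1, which assembles the degradation complex, averaged 95.4 ± 20.4 CPM in terminal combination, 101.8 ± 33.5 CPM in regressing tumours and 72.6 ± 19.95 CPM in vehicle tumours, with overlap. Sel1l, the adaptor of that complex, ran from 118.7 to 180.1 CPM over all tumours, and Edem1, a mannosidase-like protein that marks misfolded glycoproteins, from 82.1 to 155.2 CPM.

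Syvn1 encodes HRD1, the ubiquitin ligase at the centre of the complex. It had 81.9, 67.6, 70.2 and 246.8 CPM in terminal combination tumours, 44.1, 41.9, 50.5 and 54.5 CPM in regressing tumours, and 64.2, 66.7, 49.6 and 65.2 CPM in vehicle tumours. Every terminal combination tumour was above every other tumour, and tumour 4 was far above the rest. The log2 difference was 1.29 ± 0.37 (SE) against regressing tumours, with an adjusted p of 0.692 by edgeR, and 0.92 ± 0.37 against vehicle tumours, with an adjusted p of 0.819. Without terminal combination tumour 4 these were 0.62, with an unadjusted p of 0.00249, and 0.25, with an unadjusted p of 0.137. Syvn1 lies on chromosome 19 at 6046576 to 6053712 on the plus strand, and its end overlaps Mrpl49 on the opposite strand. Whether the counting used strand is not given in the sources used here.

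The high Syvn1 value of terminal combination tumour 4 stood among neighbours that were just as high there. Between Sf3b2 and Rps6ka4, from 5273932 to 6840636 on chromosome 19 (GRCm38), 39 of 50 genes with a mean of at least 10 CPM had more than 2 times the median of the other 11 tumours, with a median ratio of 4.82. Syvn1 had a ratio of 3.84, the NF-kappaB subunit gene Rela 8.18, the AP-1 gene Fosl1 8.06 and the phosphatase subunit gene Ppp2r5b 10.6. Inside the same stretch Ehd1, Men1 and Sf1 stood at 0.636, 0.650 and 0.643. Over the rest of chromosome 19, 8 of 319 genes were above 2, or 2.51%, and over all genes of that tumour 4.93% were. The boundaries and neighbours were chosen after their values were seen.

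The translocation arm, Sec61b of the protein-conducting channel and Ssr4 of the translocon-associated complex, reached no unadjusted p under 0.05. Sec61b averaged 102.6 ± 13.8 CPM in terminal combination, 106.0 ± 18.6 CPM in regressing tumours and 120.8 ± 24.8 CPM in vehicle tumours (SD, n = 4 each). Ssr4 averaged 114.8 ± 22.0, 139.9 ± 13.7 and 110.0 ± 19.95 CPM in these groups, and for both genes every pair of groups overlapped.

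Of the 3 sensors, Ern1 had an unadjusted p under 0.05, in both comparisons of terminal combination tumours. That was 1 of 3, beside 5.94% of all genes against vehicle and 7.02% against regressing tumours. Ern1 encodes IRE1, the kinase and nuclease that splices Xbp1 RNA. It had 114.5, 64.8, 33.5 and 26.8 CPM in terminal combination tumours, 31.2, 24.7, 31.1 and 32.9 CPM in regressing tumours, and 25.7, 31.8, 40.7 and 23.8 CPM in vehicle tumours. Terminal combination tumours 1 and 2 were above all others, and tumours 3 and 4 lay within the range of the other groups. Log2 differences of 0.97 ± 0.39 (SE) against vehicle and 1.00 ± 0.39 against regressing tumours, with adjusted p of 0.819 and 0.692 by edgeR, were 0.45 and 0.48 without terminal combination tumour 1. The unadjusted p of the difference from vehicle also exceeded 0.05 without terminal combination tumour 2 or vehicle tumour 1 or 4, and that from regressing tumours without regressing tumour 2.

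Eif2ak3, which encodes PERK, had its highest value in the same tumour, 67.9 CPM, and averaged 44.7 ± 16.0 CPM in terminal combination, 31.9 ± 1.70 CPM in regressing tumours and 31.6 ± 6.74 CPM in vehicle tumours. Atf6, the membrane-bound transcription factor cleaved in the Golgi, averaged 71.0 ± 8.74 CPM in terminal combination, 60.1 ± 8.59 CPM in regressing tumours and 85.1 ± 36.6 CPM in vehicle tumours, with 130.4 CPM in vehicle tumour 1. Xbp1, the factor that IRE1 splices and no member of the 31, had 220.7, 212.4, 216.4 and 236.6 CPM in terminal combination tumours, 281.7, 226.1, 243.4 and 157.5 CPM in regressing tumours, and 198.5, 161.5, 180.2 and 223.8 CPM in vehicle tumours, with no unadjusted p under 0.05. Gene counts do not separate its spliced from its unspliced form.

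The ATF4 arm showed no common direction against vehicle tumours. Of its 6 genes, 4 were lower in regressing than in vehicle tumours, with a median log2 difference of -0.23. In terminal combination tumours 4 were higher than in vehicle tumours, with a median of 0.37, and 5 were higher in terminal combination than in regressing tumours, with a median of 0.49. Chac1 was its only gene at an unadjusted p under 0.05, in both comparisons with vehicle tumours. That was 1 of 6, or 16.67%, beside 12.7% of all genes for regressing and 5.94% for terminal combination tumours.

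Chac1 encodes an enzyme that breaks down glutathione and is induced through ATF4, and it was higher in every treated tumour than in every vehicle tumour. It had 8.65, 18.7, 8.80 and 18.9 CPM in terminal combination tumours, 73.8, 11.8, 10.8 and 17.4 CPM in regressing tumours, and 5.69, 1.79, 4.32 and 5.78 CPM in vehicle tumours. The log2 difference was 2.69 ± 0.66 (SE) for regressing against vehicle tumours, a 6.44-fold higher fitted level, with an adjusted p of 0.236 by edgeR and 0.00265 by DESeq2. For terminal combination against vehicle tumours it was 1.64 ± 0.64, or 3.12-fold, with an adjusted p of 0.819 by edgeR and 0.381 by DESeq2, and its unadjusted p of 0.0254 was 0.0598 to 0.0637 without terminal combination tumour 2 or 4 or vehicle tumour 2. Without regressing tumour 1 the first was 1.59, with an unadjusted p of 0.00435. Fitted beside the muscle score, the 2 differences were 0.93 and 0.48, with unadjusted p of 0.178 and 0.403, and without the 3 tumours of highest muscle score they were 1.36 and 1.45, with unadjusted p of 0.0218 and 0.0101. Between terminal combination and regressing tumours the difference of -1.05 had an unadjusted p of 0.121 and was 0.05 without regressing tumour 1. Of 18 genes within 500 kilobases of Chac1, 1 exceeded 2 times the median of the other tumours in regressing tumour 1, where Chac1 itself had a ratio of 8.39.

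Atf4 itself had 347.9, 199.2, 142.7 and 121.0 CPM in terminal combination tumours, 158.9, 148.8, 121.9 and 132.6 CPM in regressing tumours, and 218.9, 160.6, 150.8 and 201.2 CPM in vehicle tumours. Groups overlapped, and the control of ATF4 is largely through translation, which RNA counts do not measure. Ddit3, the CHOP gene, had 38.7, 15.4, 11.98 and 8.84 CPM in terminal combination tumours, 11.3, 10.97, 7.76 and 20.98 CPM in regressing tumours, and 15.3, 5.93, 7.83 and 8.58 CPM in vehicle tumours. It overlaps Mars on the opposite strand. Trib3, a pseudokinase induced by ATF4 and CHOP, had 18.9, 3.57, 12.1 and 6.28 CPM in terminal combination tumours, 4.78, 2.85, 6.97 and 6.79 CPM in regressing tumours, and 6.12, 3.502, 9.35 and 8.11 CPM in vehicle tumours. Terminal combination tumour 1 was the highest of the 12 for all of these 3 genes.

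Asns, asparagine synthetase, had 106.9, 51.2, 76.6 and 48.9 CPM in terminal combination tumours, 35.7, 73.4, 71.3 and 26.8 CPM in regressing tumours, and 62.2, 51.2, 124.7 and 82.2 CPM in vehicle tumours. The 2 low regressing tumours, 1 and 4, are those with the highest muscle scores, and the log2 difference of -0.63 from vehicle tumours was 0.10 with the muscle score as a covariate. Ppp1r15a, the phosphatase subunit GADD34 that restores translation, averaged 20.9 ± 6.22, 19.5 ± 8.85 and 20.96 ± 5.72 CPM in terminal combination, regressing and vehicle tumours.

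**Figure D3:**
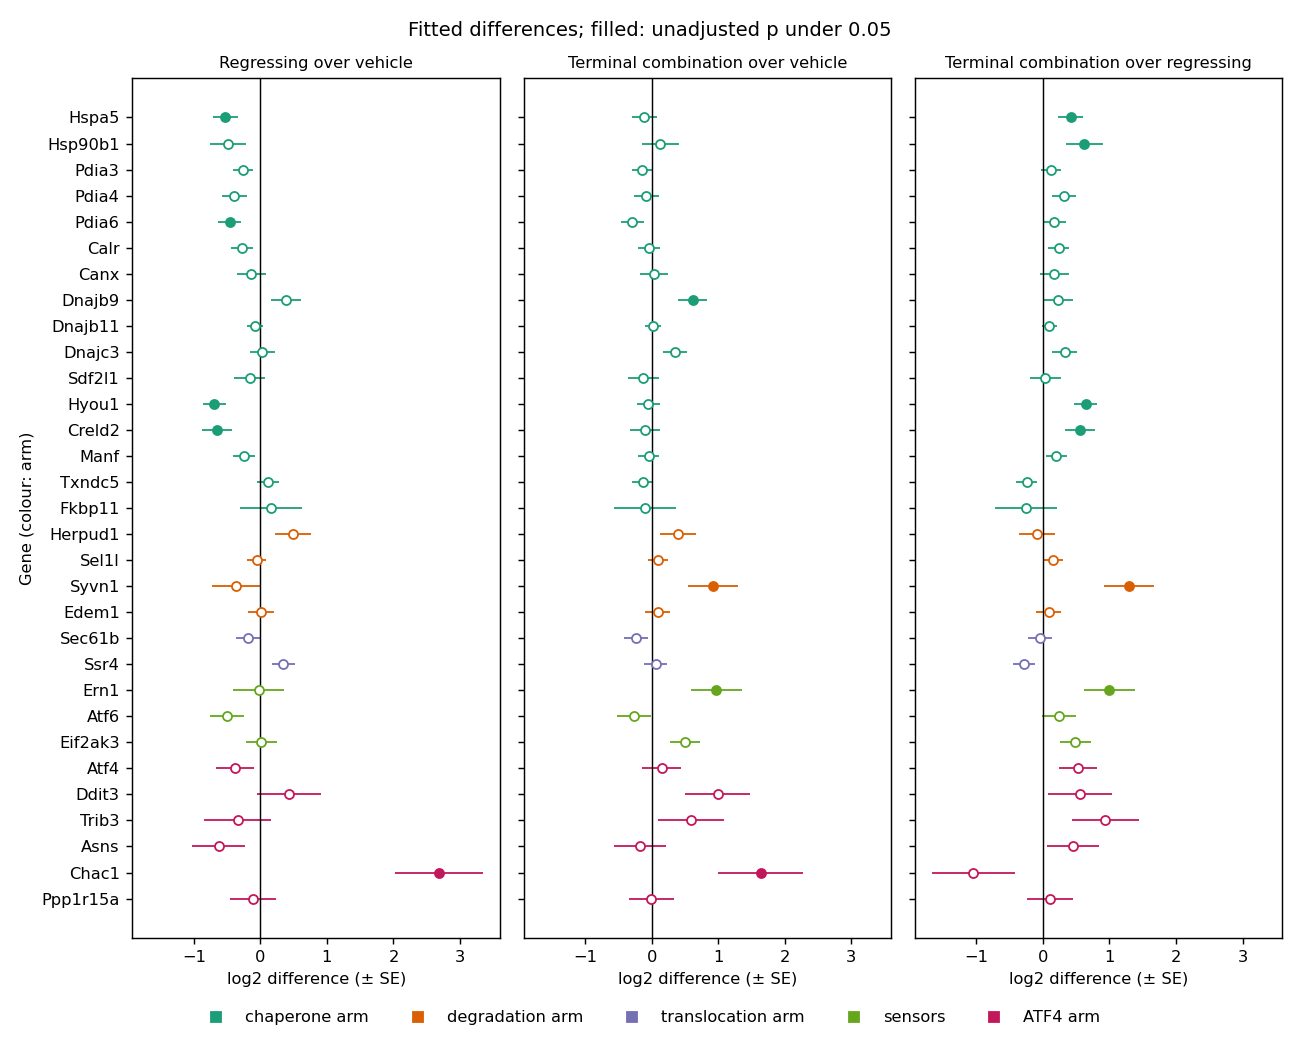
Points give the fitted log2 difference of each of the 31 genes with its SE, for regressing over vehicle, terminal combination over vehicle and terminal combination over regressing tumours, coloured by arm and filled where the unadjusted p is under 0.05. The filled chaperone points lie below 0 in the first panel and above 0 in the others, and Chac1 reaches 2.69 in the first.

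The arms were set side by side as scores, the mean log2 CPM of an arm's genes in each tumour. The chaperone score was 7.71 ± 0.16 in terminal combination, 7.49 ± 0.20 in regressing and 7.73 ± 0.16 in vehicle tumours (SD, n = 4 each). The ATF4 score was 4.79 ± 0.45, 4.53 ± 0.26 and 4.33 ± 0.37 in these groups. The chaperone difference of regressing from vehicle tumours was -0.24, and it was -0.16 without regressing tumour 4 and -0.08 without the 3 tumours of highest muscle score. The ATF4 difference of regressing from vehicle tumours was 0.20, and it was 0.02 without vehicle tumour 2, 0.10 without regressing tumour 1, -0.03 without the 3 muscle-rich tumours and -0.22 without Chac1. Terminal combination tumours stood 0.02 below vehicle tumours for chaperones and 0.46 above them for the ATF4 arm, 0.24 without terminal combination tumour 1 and 0.28 without vehicle tumour 2. The score ranges overlapped in every pair of groups for both arms. Without the 3 tumours of highest muscle score the chaperone difference between terminal combination and regressing tumours was 0.03 in place of 0.22, and without regressing tumour 4 it was 0.14.

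**Figure D4:**
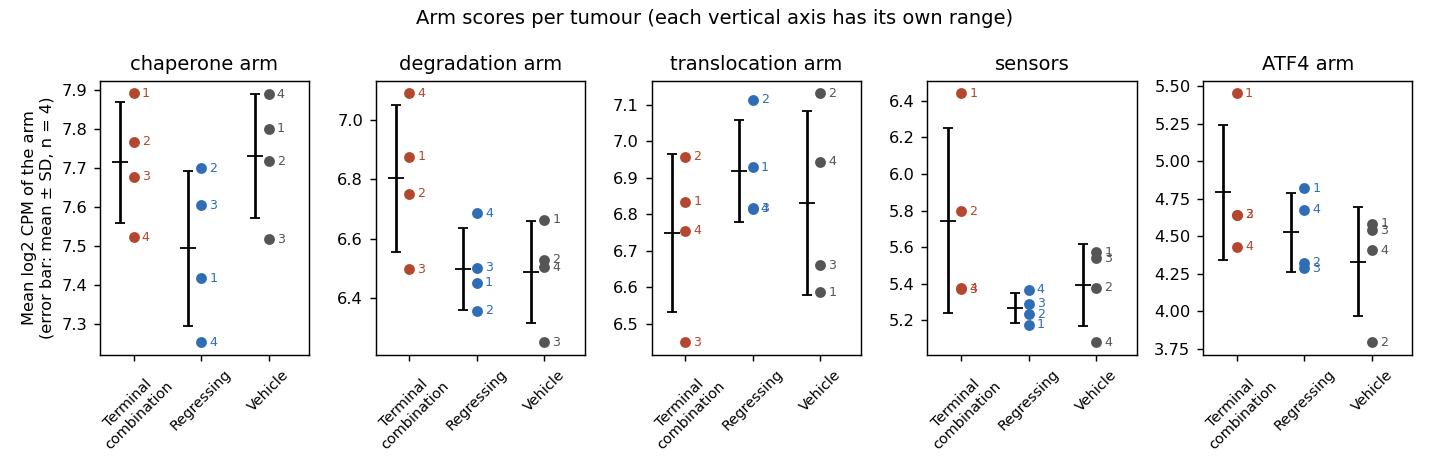
Each panel gives the mean log2 CPM of 1 arm per tumour, with tumour numbers, and the mean ± SD of 4 tumours, with terminal combination left, regressing in the middle and vehicle right. Regressing tumours 1 and 4 have the lowest chaperone scores at 7.42 and 7.25, and terminal combination tumour 1 has the highest ATF4 score at 5.45.

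Genes with and without the promoter element were also set side by side. The 8 genes with an ERSE had a median log2 difference of -0.41 between regressing and vehicle tumours, with 7 of 8 lower and 48.5% of all genes positive. Between terminal combination and regressing tumours it was 0.37, with 8 of 8 higher and 50.8% of all genes positive. The 20 genes without it had medians of -0.04 and 0.11, with 11 lower in the first and 14 higher in the second. Of the 8, 7 were chaperone genes, so the split overlaps with that into arms, and Hyou1 had no promoter to search. Syvn1 and Hsp90b1, both among the 8, were each far higher in 1 terminal combination tumour than in the others. Both sets were described after their values were known and were not tested against each other.

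Terminal combination tumour 1 was the highest of the 12 for 9 of the 31 genes and among the top 3 for 17. In that tumour, chromosomes 3, 10 and 15 ran high as a whole: the median gene had 1.54, 1.54 and 1.48 times the median of the other 11 tumours, against 1.01 over all genes. The 5 members on chromosomes 10 and 15 had ratios there of 3.53 for Ddit3, 2.31 for Atf4, 2.21 for Hsp90b1, 2.12 for Fkbp11 and 1.59 for Creld2. The 26 other members had a median ratio of 1.10, with Ern1 at 3.68, Trib3 at 3.01 and Eif2ak3 at 2.13. Among them Dnajc3 had 1.78, on chromosome 14, whose median gene had 1.22. In regressing tumour 4, chromosome 15 ran low at 0.759 and chromosome 11 at 0.799, against 0.945 over all genes. Creld2 and Fkbp11 on the first and Canx on the second were at their lowest of the 12 there. The other members on these chromosomes, Atf4 on 15 and Ern1 on 11, had ratios of 0.834 and 1.055 in that tumour. Hspa5, Pdia6, Calr, Hyou1, Manf and Asns were also at their lowest there, on chromosomes with medians of 0.9361 to 0.9795. In vehicle tumour 1, chromosome 1 had a median of 1.205 against 1.02 over all genes, and Atf6 on it was at its highest of the 12 there. Whether these chromosome-wide values set those of the genes was not tested.

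**Figure D5:**
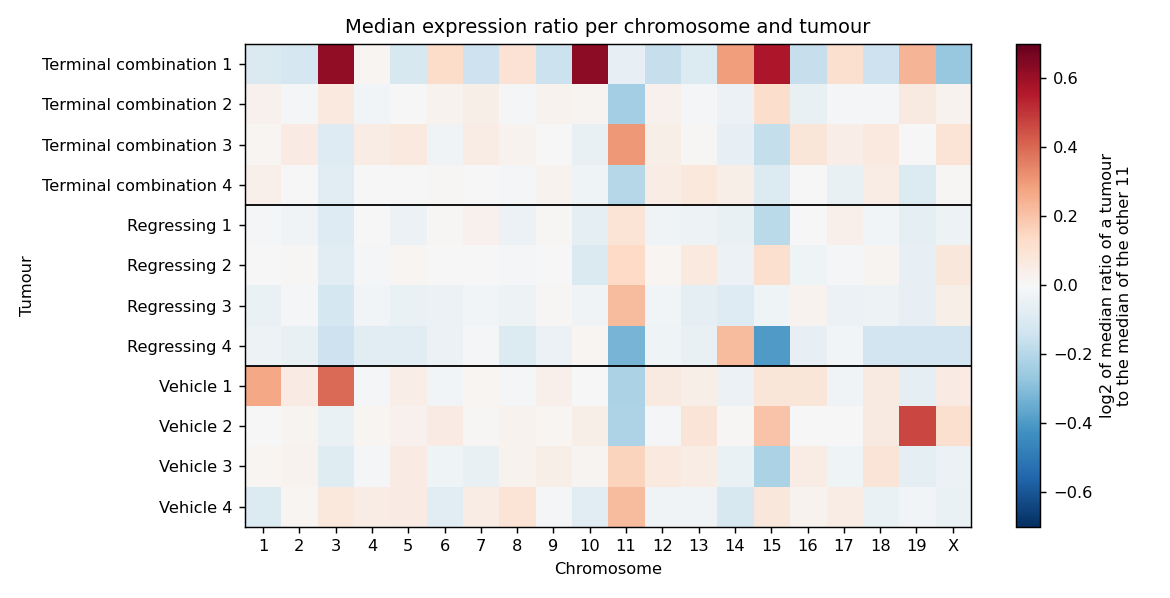
Rows are the 12 tumours, terminal combination on top, then regressing, then vehicle, and columns are chromosomes. Colour gives the log2 of the median, over genes with at least 10 CPM on average, of a tumour's CPM over the median of the other 11. Terminal combination tumour 1 stands out on chromosomes 3, 10 and 15, and vehicle tumour 2 on chromosome 19 at a ratio of 1.38.

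Other genes of these pathways were taken from 6 lists outside the 31. Among 26 tested further ATF4 targets, 22 were lower in regressing than in vehicle tumours, with a median log2 difference of -0.51. At an unadjusted p under 0.05, 5 were lower (Ddit4, Slc3a2, Slc7a5, Stc2 and Fgf21) and 2 higher (Slc1a5 and Vldlr), beside 6.03% and 6.72% of all genes. In terminal combination against regressing tumours 23 of 26 were higher, with a median of 0.43, and 4 reached that p upward and 1 downward, beside 4.12% and 2.9% of all genes. The list score was 5.365, 4.629, 4.832 and 4.317 in terminal combination tumours 1 to 4, and tumour 4 lay within the regressing range of 4.276 to 4.533. Vehicle tumours ran from 4.646 to 5.399. Slc3a2, the heavy chain of amino acid exchangers, averaged 168.5 ± 46.3 CPM in terminal combination, 111.8 ± 13.2 CPM in regressing tumours and 180.2 ± 24.2 CPM in vehicle tumours, and all regressing tumours were below all vehicle tumours. Ddit4, which restrains the growth kinase mTORC1, averaged 68.4 ± 12.9, 31.5 ± 8.19 and 61.5 ± 28.3 CPM in these groups. Slc1a5, a glutamine transporter, went the other way with 59.8 ± 16.6, 96.4 ± 23.4 and 58.4 ± 12.6 CPM. Nupr1, a stress-induced chromatin protein, had 171.7, 626.9, 32.5 and 96.7 CPM in terminal combination tumours, against 41.0 to 67.3 CPM in regressing tumours and 29.9 to 75.4 CPM in vehicle tumours.

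All 12 cytosolic aminoacyl-tRNA synthetases, the enzymes that charge tRNAs, had a lower fitted level in regressing than in vehicle tumours, with a median of -0.31. Of all genes, 48.5% had a positive value. Of the 12, 2, Cars and Lars, reached an unadjusted p under 0.05, or 16.67%, near the 12.7% of all genes. Their list score was 6.776 and 6.731 in regressing tumours 1 and 4, which had the highest muscle scores. It was 7.065 and 7.09 in regressing tumours 2 and 3, within the vehicle range of 7.025 to 7.328. Of 20 further degradation genes, 17 were higher in terminal combination than in vehicle tumours, with a median of 0.21. In that comparison 50.4% of all genes had a positive value. Os9, a lectin of the HRD1 complex, and Ngly1, the enzyme that strips sugars from exported glycoproteins, reached an unadjusted p under 0.05 there, as did 5.94% of all genes. Os9 had 343.5 CPM in terminal combination tumour 1, with the rest of its group at 172.0 to 203.4 CPM. It lies on chromosome 10, which ran high as a whole in that tumour, and the part of this was not tested. In regressing against vehicle tumours 16 of the 20 were higher as well, with a median of 0.16. There Erlec1, another lectin, and Ngly1 reached an unadjusted p under 0.05. These were 2 of the 20, both upward, beside 6.72% of all genes upward and 12.7% in either direction. The score of these 20 genes was 6.093 to 6.227 in regressing tumours, wholly above the vehicle range of 5.906 to 6.055. In terminal combination tumours it was 6.016 to 6.351 and overlapped with vehicle tumours.

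Not one of 23 tested further ER folding genes and 21 further translocation genes reached an unadjusted p under 0.05 in any comparison, and their medians ran from -0.04 to 0.12. Among 18 tested further sensors and transcription factors, only Creb3l2, a relative of ATF6 that raises secretory capacity, did so. It did in terminal combination against regressing tumours, or 5.56% of the list, near the 7.02% of all genes. It had 316.3, 271.5, 159.8 and 185.6 CPM in terminal combination tumours against 139.9, 122.7, 151.5 and 122.9 CPM in regressing tumours. Vehicle tumours, at 188.5, 239.1, 149.0 and 160.9 CPM, overlapped with both. The log2 difference between terminal combination and regressing tumours was 0.80 ± 0.23 (SE), and its adjusted p was 0.692 by edgeR.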

How the data were processed

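The authors deposited 1 file of raw counts per tumour, whole numbers for 54532 Ensembl genes. Per the labels' protocols, RNeasy mini columns yielded the RNA and the TruSeq stranded mRNA kit the libraries. HISAT2 2.2.1, Salmon, DESeq2 1.24.0 and the builds mm10 and GRCm38.p6 are named, per the submitters' processing notes, without roles. The counter, its strand setting and the annotation are not given in the sources used here. Symbols came from GENCODE M21, which held 54495 of the identifiers.

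The filterByExpr step, with a count of at least 10 and a total of at least 15, left 15650 genes. Counts were scaled by TMM and tested with edgeR 4.0.16 (glmQLFit, glmQLFTest) in R 4.3.3, 1 fit of all 12 libraries, with Benjamini-Hochberg adjustment over all genes tested. DESeq2 1.42.0 was run as an alternative. CPM use TMM-scaled library sizes, and scores are mean log2 CPM with a prior count of 2. Exon lengths are those of all annotated exons. Replicate pairs differed beyond sampling noise, with a lowest chi-square per degree of freedom of 83.6. Replicate numbers follow accession order. The title ending FFT, in 2 vehicle, 1 regressing and 1 terminal combination library, is unexplained and was tried as a batch.

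The 31 genes and all lists were chosen with earlier results of these data known. The genes given in every tumour are Hspa5, Hsp90b1, Calr, Atf4, Ddit3, Trib3, Asns and Chac1, Xbp1 from outside the 31, and the 4 of the 31 whose p was smallest per comparison, and of further lists up to 4 genes with the smallest p for any difference. Most of the further genes are given as means or ranges, and others named in passing were chosen after their values were seen. The lists of cell type markers are for skeletal muscle, adipocytes, plasma cells, macrophages, fibroblasts, Schwann lineage, keratinocytes and mitosis. On simulated counts for regressing against vehicle tumours over 15650 genes, edgeR recovered 13.0%, 56.0% and 77.0% of genes raised 2-fold, 4-fold and 8-fold and 9.0% of genes lowered 2-fold, with 3 calls among 30900 unchanged genes, and for DESeq2 the shares were 31.0%, 76.0%, 91.0% and 21.0%, with 79 such calls. Protein sequences were not analysed here. A gene of the further lists that met the rule is not reported here.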

Additional observations from a re-analysis of the deposited data

Results flagged for a closer look

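In 8 of the 99 sets of 4 tumours examined, for each of the 31 genes and 2 arm scores in 3 groups, 1 tumour lay further from the other 3 than Dixon's limit for a gap as a share of the range allows, where chance gives about 1 in 20. Terminal combination tumours supplied 4 of them. Hsp90b1 had 1469 CPM in tumour 1, with the others at 604.5 to 704.4 CPM, and Atf6 had 83.95 CPM in the same tumour, with the others at 65.1 to 67.7 CPM. Dnajb11 had 114.2 CPM in tumour 2, with the others at 90.2 to 90.8 CPM. Syvn1 had 246.8 CPM in tumour 4, with the others at 67.6 to 81.9 CPM. Among regressing tumours, Chac1 had 73.84 CPM in tumour 1, with the others at 10.8 to 17.4 CPM. Among vehicle tumours, tumour 3 was low for Dnajb9, at 18.25 CPM with the others at 22.4 to 22.6 CPM, and for Syvn1, at 49.62 CPM with the others at 64.2 to 66.7 CPM. Hyou1 was high in vehicle tumour 4, at 300.0 CPM with the others at 229.1 to 238.3 CPM.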

How the results depend on the processing

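No paired analysis was possible because the labels give no replicate numbers, only an order of accession. EdgeR called no gene at an adjusted p of 0.05 under any other normalisation, filter or covariate tried. DESeq2 called 477 genes for regressing against vehicle, 14 for terminal combination against vehicle, 51 for terminal combination against regressing and 261 for any difference. Leaving out 1 tumour gave 0 to 1 genes for terminal combination against regressing and for any difference, the 1 without terminal combination tumour 4, and 0 in the other comparisons.

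The number of the 31 at an unadjusted p under 0.05 was less stable. The share of all genes at that p moved as well and is given beside it. In regressing against vehicle, 5 became 9 in a fit of these groups only, 2 without the FFT libraries, 3 with the muscle score as a covariate and 2 without the 3 tumours of highest muscle score, and 4 to 7 with 1 tumour left out. Over all genes the share was 12.7% in the main fit and 13.5%, 7.9%, 3.99% and 3.56% under these 4 settings, in order. With 1 tumour left out it was 7.96% to 13.8%. In terminal combination against vehicle, 4 became 2 under each of these 4 settings and 1 to 7 with 1 tumour left out, the 1 without terminal combination tumour 2, the 7 without tumour 3 and 2 without vehicle tumour 3. Over all genes the share was 5.94% in the main fit and 5.23%, 6.8%, 3.06% and 4.01% under the 4 settings. With 1 tumour left out it was 3.61% to 10.2%. In terminal combination against regressing, 6 became 2 without the FFT libraries and 1 without the muscle-rich tumours, and 2 to 9 with 1 tumour left out, the 2 without terminal combination tumour 1, 3 without regressing tumour 2 or 4 and the 9 without terminal combination tumour 4. Over all genes the share was 7.02% in the main fit, 5.41% without the FFT libraries and 2.46% without the muscle-rich tumours. With 1 tumour left out it was 4.58% to 8.84%. Hyou1 and Chac1 were the genes left in regressing against vehicle without the FFT libraries and without the muscle-rich tumours.

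The chaperone difference of terminal combination from regressing tumours was 0.034 without the muscle-rich tumours. The ATF4 difference of regressing from vehicle tumours was -0.224 without Chac1, an alternative chosen after seeing the data. Signs turned for genes that had no unadjusted p under 0.05: Ddit3 in regressing against vehicle (-0.007 without muscle-rich tumours) and in terminal combination against regressing (-0.126 without FFT libraries, -0.075 without terminal combination tumour 1, with -0.075 to 0.906 over all single tumours left out), Trib3 in terminal combination against vehicle (-0.252 without FFT libraries), Asns in regressing against vehicle (0.103 with the muscle covariate), and Chac1 in terminal combination against regressing (0.218 without FFT libraries, 0.093 without muscle-rich tumours, 0.049 without regressing tumour 1, with -1.32 to 0.049 over single tumours left out). The cause was not tested. With 4 tumours a group and the spread seen here, edgeR recovered 13.0% of simulated 2-fold increases, and most differences described above are smaller than 2-fold.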

Other observations

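Marker lists of other cell types, described by their counts at an unadjusted p under 0.05 by edgeR in regressing against vehicle tumours, gave 10 of 14 skeletal muscle, 8 of 10 adipocyte and 11 of 15 plasma cell genes higher and 1 plasma cell gene lower, beside 6.72% of all genes higher and 6.03% lower. The same count was 0 of 8 macrophage genes, 1 of 10 fibroblast and matrix genes higher, 6 of 12 Schwann lineage genes higher and 4 lower, 5 of 14 mitosis genes lower and 1 of 3 keratinocyte genes lower. In terminal combination against regressing tumours, 10 of 15 plasma cell genes and 2 of 10 adipocyte genes were lower, beside 2.9% of all genes, and no skeletal muscle gene reached that p.

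The ATF4 target Vldlr, a lipoprotein receptor, had 28.6, 86.0, 7.48 and 18.8 CPM in terminal combination tumours, 148.1, 9.87, 12.2 and 74.5 CPM in regressing tumours, and 8.51, 9.79, 10.6 and 4.08 CPM in vehicle tumours. Its 3 highest tumours are the 3 with the highest skeletal muscle scores. Stc2, a secreted ATF4 target, had 86.2 CPM in vehicle tumour 3 and between 3.51 and 17.6 CPM in the 11 others. Sec11c, a signal peptidase subunit, had 140.7 CPM in terminal combination tumour 3 and 100.5 CPM in tumour 4, against 28.4 to 79.6 CPM in regressing and 19.98 to 54.6 CPM in vehicle tumours.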
